A study of Mus musculus with 12 samples.

Results

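The genes described here are 10 genes of DNA replication licensing and of the replication fork, Mcm2, Mcm3, Mcm4, Mcm5, Mcm6, Mcm7, Mcm10, Gins1, Cdc45 and Pcna, taken by name from a list and found by the symbol of their Ensembl identifier. They are 10 of the 46603 genes in the deposited count tables, and all 10 were detected in every library and passed the filter on low counts in every comparison. RNA was sequenced from microdissected neocortex of Chd8+/+ mice and of Chd8+/- mice, which are heterozygous for a null allele of the chromatin remodeler gene Chd8, with n = 3 libraries per genotype at embryonic day 12.5 (E12.5) and at postnatal day 5 (P5), 12 in all. All mice were on the C57Bl/6J background. The null allele was made by germline deletion of exon 3 with a β-actinCre transgene, which was bred out afterwards, so that every cell of a Chd8+/- animal is heterozygous. Both hemispheres were taken at E12.5 and a single hemisphere at P5, and the stages were deposited as separate tables, so that stage cannot be told apart from separate collection, sequencing and counting. The sources used here do not say that each library came from a separate animal, and the p-values measure the spread between these libraries.

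The MCM2-7 proteins form the ring-shaped helicase that unwinds DNA. During G1 phase the ring is loaded in an inactive form at replication origins by the origin recognition complex with Cdc6 and Cdt1, a step called licensing. At the start of S phase the ring is activated by joining Cdc45 and the GINS complex, of which Gins1 encodes a subunit, and Mcm10 takes part in this activation. Pcna encodes the sliding clamp that holds the DNA polymerases on the template. These genes are transcribed mainly in cycling cells, many of them under E2F transcription factors, and are low in cells that have left the cell cycle. In the neocortex the cycling cells of early development are the radial glia and intermediate progenitors, whereas neurons do not divide.

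In the deposited annotation (GRCm38), Mcm2 spans chr6:88883474-88898780, Mcm3 chr1:20802968-20820312, Mcm4 chr16:15623897-15637400, Mcm6 chr1:128331590-128359664 and Mcm7 chr5:138164583-138172422, all on the minus strand. Mcm5 lies on the plus strand at chr8:75109528-75128439. Mcm10 spans chr2:4989714-5012791 and Pcna chr2:132249162-132253314 on the minus strand, Gins1 chr2:150905400-150931280 on the plus strand and Cdc45 chr16:18780447-18811987 on the minus strand. The counts cover the exons of each gene. Mcm7 shares 321 exonic bases with Ap4m1 and 64 with Cops6, both on the opposite strand, and 84 and 88 with the microRNA genes Mir25 and Mir93 on its own strand. Cdc45 shares 209 exonic bases with Ufd1 on the opposite strand. The counting command recorded with the P5 table sets no strand, and none is recorded with the E12.5 table, so that reads in these stretches were not separated by strand at P5, and whether they were at E12.5 is not known.

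The promoters are shown because the 10 genes moved together between the stages. A RefSeq table of promoter windows (GRCm38.p6, 250 bases before to 50 after the start of a RefSeq transcript, which can differ from the Ensembl gene start) held 9 windows for 8 of the genes, with 2 for Mcm7. Mcm4 and Gins1 had no entry. An E2F octamer, searched on both strands as TTTCCCGC, TTTCGCGC, TTTGCCGC or TTTGGCGC, was found in 4 of the 9 windows, those of Mcm3, Mcm5 and Mcm6 and 1 of Mcm7, against 2.26% of all 32851 windows. The CCAAT box, searched as CCAAT on both strands, was in 9 of the 9 windows, against 37.4% of all windows. The cell cycle homology region, searched as TTTGAA on both strands, was in the windows of Cdc45 and Mcm2, against 17.9% of all windows. The GC box, searched as GGGCGG on both strands, was in 8 of the 9 windows, against 35.7% of all. In Mcm7, 1 octamer and 1 CCAAT box share a base. Mcm5 and Mcm6 are printed as promoters with octamers before the start, and Mcm2 and Mcm10 as windows without one. Each stretch is the 250 bases before the start, with E2F octamers and CCAAT boxes in capitals.
Mcm5, chr8:75109259-75109508, plus strand: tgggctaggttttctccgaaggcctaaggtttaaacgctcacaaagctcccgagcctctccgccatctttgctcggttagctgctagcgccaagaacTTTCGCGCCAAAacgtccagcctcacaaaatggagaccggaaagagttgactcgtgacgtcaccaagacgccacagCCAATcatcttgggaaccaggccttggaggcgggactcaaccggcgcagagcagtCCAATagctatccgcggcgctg
Mcm6, chr1:128359706-128359955, minus strand: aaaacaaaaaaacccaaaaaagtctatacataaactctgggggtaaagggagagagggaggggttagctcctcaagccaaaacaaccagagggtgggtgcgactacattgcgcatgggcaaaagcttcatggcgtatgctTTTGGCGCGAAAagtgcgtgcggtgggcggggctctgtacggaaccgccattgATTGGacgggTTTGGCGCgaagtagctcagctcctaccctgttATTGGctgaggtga
Mcm2, chr6:88898781-88899030, minus strand: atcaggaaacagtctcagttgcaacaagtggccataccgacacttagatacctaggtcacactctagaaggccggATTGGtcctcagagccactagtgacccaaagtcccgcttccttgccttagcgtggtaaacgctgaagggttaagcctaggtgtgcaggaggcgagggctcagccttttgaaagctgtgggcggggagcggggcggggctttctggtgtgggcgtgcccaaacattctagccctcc
Mcm10, chr2:5012792-5013041, minus strand: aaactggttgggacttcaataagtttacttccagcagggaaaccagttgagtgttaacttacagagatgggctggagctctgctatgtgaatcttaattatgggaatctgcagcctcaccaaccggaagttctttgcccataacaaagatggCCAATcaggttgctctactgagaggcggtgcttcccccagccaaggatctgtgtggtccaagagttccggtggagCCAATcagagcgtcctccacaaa
In Mcm5, 2 overlapping octamers on opposite strands covered bases -153 to -142 from the start. In Mcm6, 2 overlapping octamers covered bases -110 to -99 and another covered bases -47 to -40. The octamers of Mcm3 lie after the start and are not printed. A match is a description of letters, and binding was not measured.

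Between 38774591 and 54695236 reads were counted on genes per library. Levels are given as CPM, the counts of a gene scaled to the same library total, with trimmed mean of M values (TMM) factors over the 12 libraries. Chd8 was at 229, 233 and 236 CPM in the E12.5 Chd8+/+ libraries and at 161, 162 and 167 CPM in the E12.5 Chd8+/- libraries. At P5 it was at 145, 151 and 151 CPM against 95.01, 95.7 and 98.6 CPM. The genotypes did not overlap at either stage, which matches the labels. Each group held 1 library with high Xist counts, so that the groups were matched in sex, though the sexes were not equal in number within a group. It was the 3rd library in E12.5 Chd8+/+ and the 1st in the other groups. Leaving it out removes that sex from its group. The 3rd P5 Chd8+/- library stood apart from the others of its group, with a chi-square per degree of freedom of 49.6 and 43.7 against 11.4 between the other 2 libraries. Without CT010467.1 and Lars2, which were at 15470.2 and 6255 CPM in that library and at most 2283 and 995 CPM in the other P5 libraries, the values were 11.7 and 8.07. Below, the number of genes called between the genotypes at P5 and the values of Cdc45 and Mcm7 are also given without that library.

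The 10 genes together took 0.203% to 0.220% of the counts in the 6 E12.5 libraries and 0.0169% to 0.0189% in the 6 P5 libraries. Their summed level was 2074 ± 87.4 CPM in E12.5 Chd8+/+ libraries and 2114 ± 57.8 CPM in E12.5 Chd8+/- libraries (SD, n = 3 each). At P5 it was 186.3 ± 13.3 CPM in Chd8+/+ and 180.8 ± 2.12 CPM in Chd8+/- libraries. The summed level therefore differed by stage in every library, and the genotypes overlapped at each stage.

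**Figure D1:**
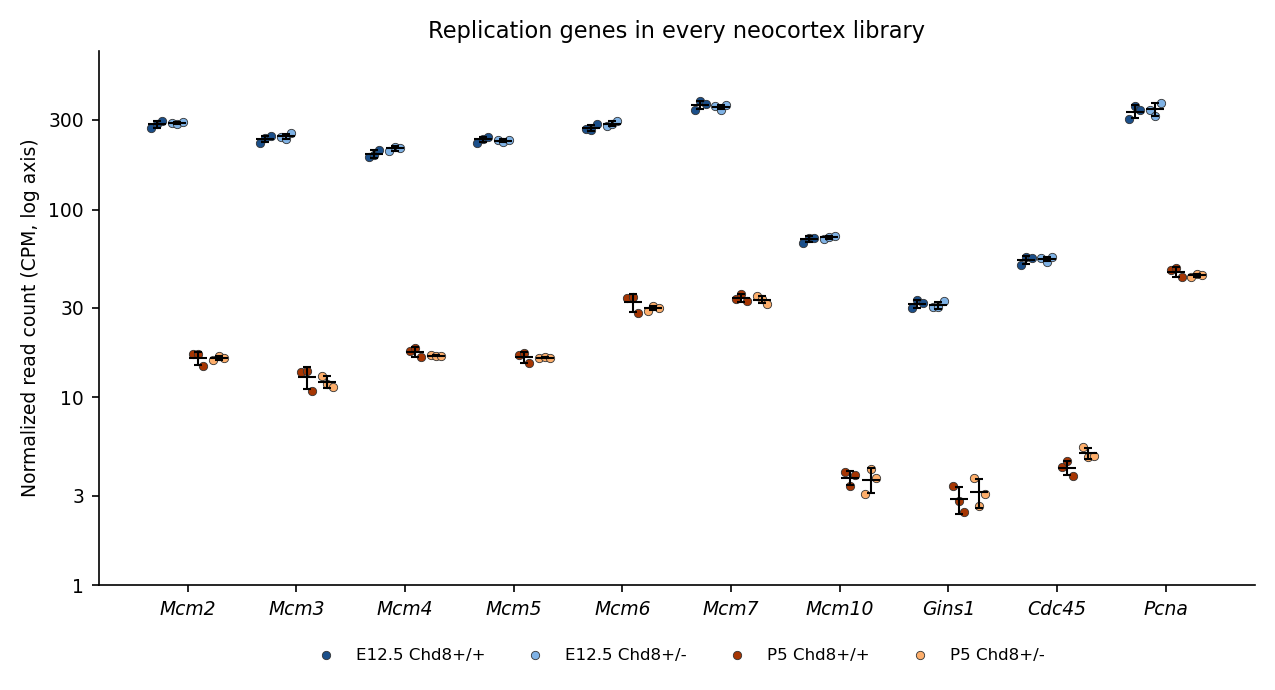
Normalized read count (CPM, log axis) of the 10 replication genes, with a point for each library, colored by stage and genotype, and the mean ± SD of the 3 libraries of a group as a black bar. For each gene the 6 E12.5 libraries lie far above the 6 P5 libraries, whereas the genotypes of a stage lie close together, apart only for Cdc45 at P5.

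To compare genes with each other, levels were divided by the length of the merged exons. Pcna, the sliding clamp, was highest in each of the 4 groups, at 138 ± 10.9 CPM per kb in E12.5 Chd8+/+ and 19.5 ± 1.16 CPM per kb in P5 Chd8+/+ libraries. Mcm10 was lowest in each group, at 9.03 ± 0.311 and 0.485 ± 0.0413 CPM per kb in the same groups. Mcm7 was the second in each group, at 81.3 ± 4.09 CPM per kb in E12.5 Chd8+/+ and 7.64 ± 0.370 CPM per kb in P5 Chd8+/+ libraries. At E12.5 the order in Chd8+/+ libraries continued with Mcm5 (69.0), Mcm3 (63.3), Mcm6 (58.3), Mcm4 (55.0), Mcm2 (40.9), Cdc45 (24.01) and Gins1 (20.8 CPM per kb). Of these neighbors, Mcm3 and Mcm6, and Mcm6 and Mcm4, overlapped between libraries. At P5 the order after Mcm7 was Mcm6 (6.87), Mcm4 (4.86), Mcm5 (4.80), Mcm3 (3.41), Mcm2 (2.33), Gins1 (1.90) and Cdc45 (1.88 CPM per kb). The libraries of Mcm7 and Mcm6, of Mcm4 and Mcm5, of Mcm2 and Gins1, and of Gins1 and Cdc45 overlapped there. In Chd8+/- libraries the order at E12.5 was the same, and at P5 it differed in that Mcm5 (4.75) preceded Mcm4 (4.66) and Cdc45 (2.24) preceded Gins1 (2.07 CPM per kb), the libraries of Cdc45 overlapping those of Mcm2 and of Gins1. The order was the same when levels were given as TPM, which scales counts per base of exon to the same sum in each library. Lengths of merged exons count all annotated transcripts, and at 6956 bases for Mcm2 and 7692 bases for Mcm10 they lower the levels per kb of these genes.

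The first comparison asked how these genes differ between the embryonic cortex, in which progenitors predominate, and the early postnatal cortex. All 10 genes were lower at P5, in both genotypes, by 7.1-fold (Pcna) to 18.5-fold (Mcm3 and Mcm10) in Chd8+/+ mice and by 7.63-fold (Pcna) to 20.3-fold (Mcm3) in Chd8+/- mice. In edgeR's quasi-likelihood test over 19676 genes, 10 of 10 were called lower in Chd8+/+ mice, against 41.7% of all genes tested, and 10 of 10 in Chd8+/- mice, against 41.6%. All 10 were called with a log2 fold change below -2, as were 6.97% of all genes tested in Chd8+/+ and 7.38% in Chd8+/- mice. For all 10 the libraries of the stages did not overlap, which held in this direction for 42.4% of all genes in Chd8+/+ and 42.2% in Chd8+/- mice. The median log2 fold change of the 10 genes was -3.59 in Chd8+/+ and -3.55 in Chd8+/- mice, whereas that over all genes tested was -0.018 and -0.0046. In bulk tissue, fewer cells of a type cannot be told apart from less RNA per cell.

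Among the subunits of the MCM2-7 ring, Mcm2, whose product also binds histones at the fork, was at 272, 286 and 296 CPM in the E12.5 Chd8+/+ libraries and at 16.9, 17.02 and 14.6 CPM in the P5 Chd8+/+ libraries. In Chd8+/- libraries Mcm2 was at 289, 284 and 292 CPM at E12.5 and at 15.8, 16.7 and 16.2 CPM at P5. The stages were thus far apart and the genotypes interleaved. The log2 fold change of Mcm2 between the stages was -4.13 ± 0.06 (SE, adjusted p = 1.5e-16 by edgeR) in Chd8+/+ and -4.15 ± 0.06 (adjusted p = 1.4e-16 by edgeR) in Chd8+/- mice.

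Mcm3 encodes the subunit through which the ring first contacts the loading complex at origins. It fell from 227 to 246 CPM in the E12.5 Chd8+/+ libraries to 10.9 to 13.8 CPM at P5, and from 239 to 255 CPM to 11.4 to 13.03 CPM in Chd8+/- libraries. Its log2 fold changes were -4.21 ± 0.08 and -4.34 ± 0.08 (SE). Mcm5, whose product forms with Mcm2 the gate through which DNA enters the ring, fell from 227 to 243 CPM to 15.2 to 17.2 CPM in Chd8+/+ and from 229 to 235 CPM to 16.2 to 16.3 CPM in Chd8+/- libraries. The log2 fold changes of Mcm5 were -3.85 ± 0.05 and -3.84 ± 0.05 (SE), the smallest adjusted p of the 10 genes in both genotypes (9.0e-17 and 1.0e-16 by edgeR).

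Mcm4, whose product is phosphorylated by the kinase Cdc7 when origins fire, was at 189.8, 194 and 208 CPM in E12.5 Chd8+/+ and at 205, 216 and 213 CPM in E12.5 Chd8+/- libraries. At P5 it was at 17.7, 18.4 and 16.3 CPM in Chd8+/+ and at 16.8, 16.7 and 16.6 CPM in Chd8+/- libraries. All 6 P5 libraries lay far below any E12.5 library and the genotypes were apart at neither stage. The log2 fold changes of Mcm4 were -3.50 ± 0.05 and -3.66 ± 0.05 (SE).

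Mcm6 and Mcm7, whose products form with Mcm4 the catalytic core of the helicase, had the smallest falls of the 6 subunits. Mcm6 was at 267, 264 and 285 CPM in E12.5 Chd8+/+ and at 33.9, 34.3 and 28.03 CPM in P5 Chd8+/+ libraries. In Chd8+/- libraries it was at 279.6, 286 and 295 CPM and at 29.0, 30.5 and 30.1 CPM. The log2 fold changes of Mcm6 were -3.08 ± 0.07 (adjusted p = 6.9e-15 by edgeR) and -3.26 ± 0.07 (adjusted p = 4.6e-15 by edgeR). Mcm7 was at 341, 376 and 363 CPM in E12.5 Chd8+/+ and at 33.4, 35.6 and 32.4 CPM in P5 Chd8+/+ libraries. In Chd8+/- libraries Mcm7 was at 357, 340 and 358 CPM at E12.5 and at 34.5, 33.4 and 31.6 CPM at P5, and its log2 fold changes were -3.41 ± 0.06 in both genotypes. Ap4m1, with which Mcm7 shares 321 exonic bases, had a log2 fold change of -0.90 ± 0.08 in Chd8+/+ mice. Cops6, with which it shares 64, was at -0.21 ± 0.04 between the stages in Chd8+/+ mice, and at 0.14 ± 0.03 between the genotypes at P5 (adjusted p = 0.117 by edgeR). The part of these genes in the Mcm7 counts was not tested.

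Among the factors that convert the loaded ring to an active helicase, Mcm10 was at 66.7, 70.8 and 70.9 CPM in E12.5 Chd8+/+ libraries and at 3.99, 3.38 and 3.84 CPM in P5 Chd8+/+ libraries. In Chd8+/- libraries it was at 69.5, 71.4 and 72.3 CPM and at 3.07, 4.16 and 3.70 CPM. In Chd8+/+ mice the log2 fold change of Mcm10 was -4.21 ± 0.09, which its SE does not separate from that of Mcm3 (adjusted p = 5.6e-15 by edgeR), and 0.894% of all genes tested fell further. In Chd8+/- mice the value was -4.28 ± 0.09 (adjusted p = 5.3e-15 by edgeR).

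Cdc45 was at 50.9, 56.0 and 55.4 CPM in E12.5 Chd8+/+ and at 55.2, 52.8 and 55.8 CPM in E12.5 Chd8+/- libraries. At P5 it was at 4.28, 4.57 and 3.82 CPM in Chd8+/+ and at 5.46, 4.84 and 4.87 CPM in Chd8+/- libraries, on 173 to 230 reads per library. It fell by 12.8-fold in Chd8+/+ and by 10.8-fold in Chd8+/- mice, with log2 fold changes of -3.68 ± 0.08 and -3.43 ± 0.07 (SE). Ufd1, which overlaps it on the opposite strand, had log2 fold changes of 0.00 ± 0.04 and -0.01 ± 0.04 between the stages.

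Gins1, the least counted of the 10 genes, fell from 29.7 to 32.9 CPM at E12.5 to 2.45 to 3.39 CPM at P5 in Chd8+/+ libraries, and from 30.1 to 32.5 CPM to 2.63 to 3.71 CPM in Chd8+/- libraries. It was read by 111 to 182 reads per P5 library. Its log2 fold changes of -3.44 ± 0.11 and -3.31 ± 0.11 (SE) had the largest adjusted p of the 10 genes (6.0e-13 and 9.3e-13 by edgeR).

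Pcna had the smallest fall. It was at 304, 355 and 337 CPM in E12.5 Chd8+/+ and at 339, 315 and 369 CPM in E12.5 Chd8+/- libraries. At P5 it was at 47.6, 49.0 and 43.6 CPM in Chd8+/+ and at 43.9, 45.4 and 44.8 CPM in Chd8+/- libraries. The log2 fold change of Pcna was -2.83 ± 0.07 (adjusted p = 3.3e-14 by edgeR) in Chd8+/+ and -2.93 ± 0.07 (adjusted p = 2.4e-14 by edgeR) in Chd8+/- mice, and 3.41% of all genes tested fell further in Chd8+/+ mice. The intervals of Pcna and of Mcm2 did not overlap in either genotype.

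**Figure D2:**
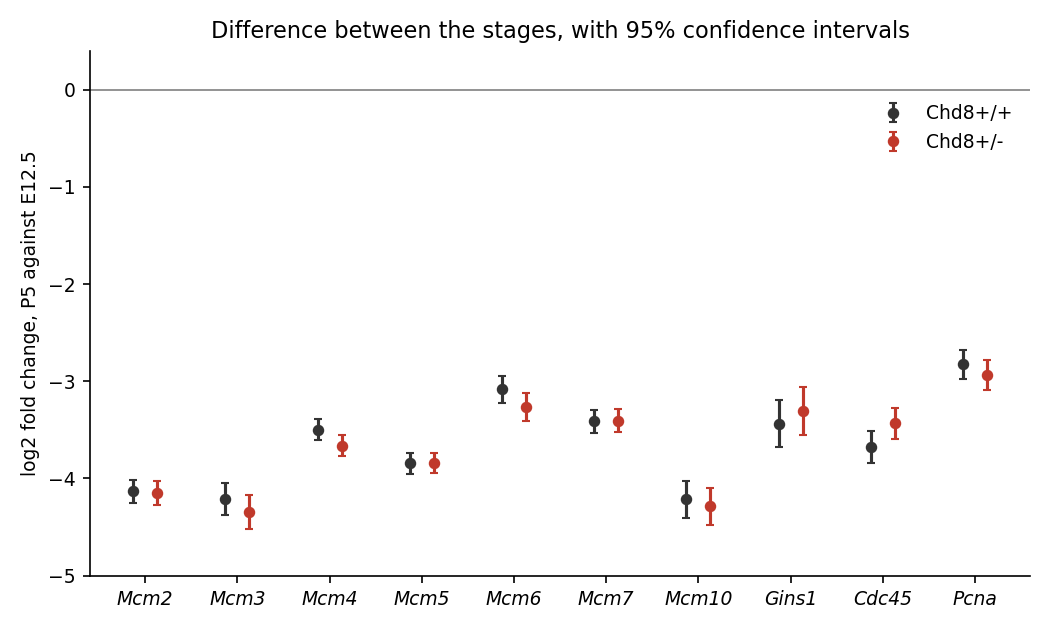
Log2 fold change of each gene from E12.5 to P5, with the 95% confidence interval of the edgeR fit as bars, in Chd8+/+ (black) and Chd8+/- (red) mice. All 10 genes lie between -2.83 and -4.34 in both genotypes, with Pcna and Mcm6 the least lowered and Mcm3 and Mcm10 the most.

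Because the products of Mcm2 to Mcm7 are present once each in the ring, their mRNA levels per kb were also expressed as shares of their sum in each library. Mcm6 rose from 16.1% ± 0.474 at E12.5 to 22.6% ± 0.848 at P5 and Mcm7 from 21.7% ± 0.743 to 25.8% ± 0.894 (SD, n = 6 libraries of both genotypes per stage). Mcm3 fell from 17.3% ± 0.233 to 11.3% ± 0.608, Mcm2 from 11.1% ± 0.0730 to 7.93% ± 0.244 and Mcm5 from 18.5% ± 0.358 to 16.3% ± 0.300. For these 5 genes the stages did not overlap, and the adjusted p was 0.0026 (two-sided exact permutation test, n = 6 per stage, adjusted over 6 genes), the raw p of 0.0022 being the smallest the design allows. The test was added after the data were seen. Because the shares restate the falls between the stages given above, it is no separate support for them. Mcm4 was at 15.3% ± 0.575 and 16.2% ± 0.258 (exact permutation p = 0.011), with libraries that overlapped when the genotypes were pooled. In Chd8+/+ libraries alone the Mcm4 share was 14.6% to 15.3% at E12.5 and 16.01% to 16.6% at P5, without overlap, and in Chd8+/- libraries 15.3% to 16.3% and 16.01% to 16.4%, with overlap. The genotypes did not overlap in the share of Mcm4 at E12.5. Nor did they in that of Mcm5 at E12.5, at 18.7% to 18.8% in Chd8+/+ and 17.98% to 18.4% in Chd8+/- libraries. At P5 the Mcm5 share was 15.9% to 16.2% and 16.3% to 16.7%, again apart but in the opposite direction. The other shares overlapped between the genotypes at each stage. Of all genes tested, the levels of 11.4% at E12.5 and 23.4% at P5 did not overlap either. These differences in share were not tested, and with 3 libraries per genotype 0.1 is the smallest p of a two-sided exact permutation test. The shares sum to 100% in each library, so that they are not independent of each other.

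**Figure D3:**
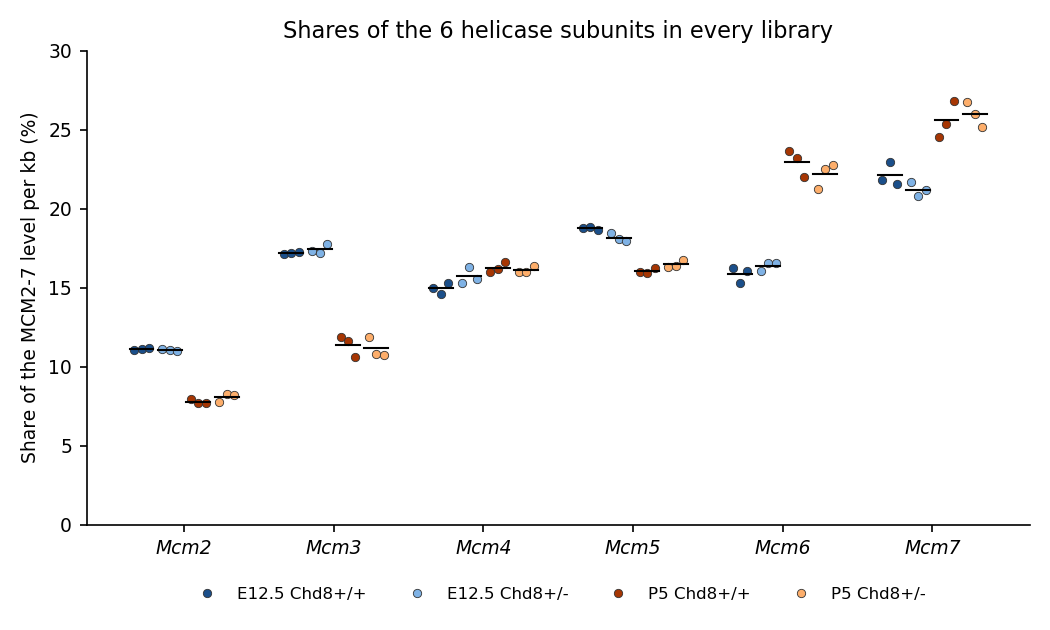
Share (%) of each of Mcm2 to Mcm7 in their summed level per kb, with a point for each library, colored by stage and genotype, and the mean of a group as a black line. Mcm6 and Mcm7 take a larger share in the P5 libraries, and Mcm2, Mcm3 and Mcm5 a smaller share, in both genotypes.

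Markers of cycling cells and of other cell types also differed between the stages. Of 9 neural progenitor markers, 8 were called lower at P5 and 1, Fabp7, higher, and their summed level was 3065 to 3287 CPM in the E12.5 libraries and 703 to 848 CPM in the P5 libraries. Of 5 intermediate progenitor markers, 5 were called lower, from 357 to 405 CPM to 19.7 to 25.1 CPM, and Neurog1 was at 0 to 0.0958 CPM at P5. Of 7 erythrocyte markers, 6 were called lower and 1 higher in Chd8+/+ mice, and their summed level was 3059 to 4231 CPM at E12.5 and 106 to 131 CPM at P5. Of all 19676 genes tested, 8154 were called higher at P5 and 8203 lower in Chd8+/+ mice. Markers of later cell types were higher at P5, with 6 of 7 astrocyte markers, 4 of 5 markers of oligodendrocyte precursors and 6 of 6 microglia markers called higher in Chd8+/+ mice. Their summed levels rose from 359.9 to 400.3 CPM to 1546 to 1780 CPM, from 70.3 to 107 CPM to 364 to 397 CPM, and from 28.4 to 33.3 CPM to 102 to 137 CPM. The part of cell composition in the fall of the replication genes was not tested.

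The replication machinery beyond the 10 genes was read from 7 lists with 61 genes, of which 59 were called lower and 2 higher at P5 in both genotypes, with a median log2 fold change of -2.57 in Chd8+/+ mice. The lists nearest to the 10 genes were nucleotide supply, with 6 of 6 genes lower and a median of -3.49, and fork protection and nucleosome assembly, with 6 of 6 lower and a median of -3.35. In nucleotide supply the largest fall was that of Rrm2, a subunit of ribonucleotide reductase, from 340 ± 24.9 to 21.2 ± 0.448 CPM, and the smallest that of Dut, which encodes dUTPase, from 101 ± 1.04 to 25.4 ± 1.71 CPM. In fork protection, Clspn, which encodes claspin, fell from 96.7 ± 3.41 to 5.01 ± 0.474 CPM and Tipin from 80.9 ± 2.73 to 14.4 ± 0.469 CPM. Of the genes for origin firing and helicase activation, 11 of 11 were lower (median -2.87), from Ticrr at -4.27 ± 0.10 to Donson at -0.42 ± 0.07.

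Of the genes for origin recognition and loading, 8 of 8 were lower, with a median of -1.41. Cdc6, which loads the ring at origins, had a log2 fold change of -4.62 ± 0.10, from 52.6 ± 3.19 to 2.14 ± 0.348 CPM, whereas Orc5, an origin recognition subunit, had -0.33 ± 0.06, from 35.5 ± 1.36 to 28.3 ± 1.59 CPM (adjusted p = 7.5e-05 by edgeR). Of the MCM paralogues and binding proteins, 4 of 4 were lower (median -1.95), with Gmnn, which encodes the licensing inhibitor geminin, at -3.89 ± 0.09 and Mcm9 at -1.18 ± 0.08. Of the genes for clamp loading and the lagging strand, 14 of 14 were lower (median -2.07), with Dna2 at -3.60 ± 0.08 and Rfc2, a subunit of the clamp loader, at -1.12 ± 0.05. The replicative polymerases and primase were the only list of the 7 with genes called higher, 10 being lower and 2 higher (median -2.11). Pole2 fell from 29.3 ± 0.766 to 2.17 ± 0.109 CPM, whereas Pold4, an accessory subunit of polymerase delta, was higher at P5, at 7.12 ± 0.241 against 3.73 ± 0.111 CPM (log2 fold change 0.93 ± 0.10). The other gene called higher was Pole4, at 0.60 on the log2 scale, which was named after its value was seen.

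Genes of the cell cycle outside replication were read from 3 further lists in Chd8+/+ mice. Of 13 mitosis genes, 13 were lower, with a median of -4.20, from Bub1, a spindle checkpoint kinase, at -4.87 ± 0.07 to Cdk1 at -3.78 ± 0.08. Of 13 regulators of the G1/S transition, 13 were lower (median -3.25), from E2f2 at -4.16 ± 0.10 to E2f3 at -1.42 ± 0.06. Of 5 CDK inhibitors, 3 were lower and 2 higher (median -1.10), with Cdkn1c at -2.28 ± 0.12 and Cdkn2d at 0.90 ± 0.07. The medians of the 10 genes therefore lay between those of the mitosis and the G1/S lists.

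**Figure D4:**
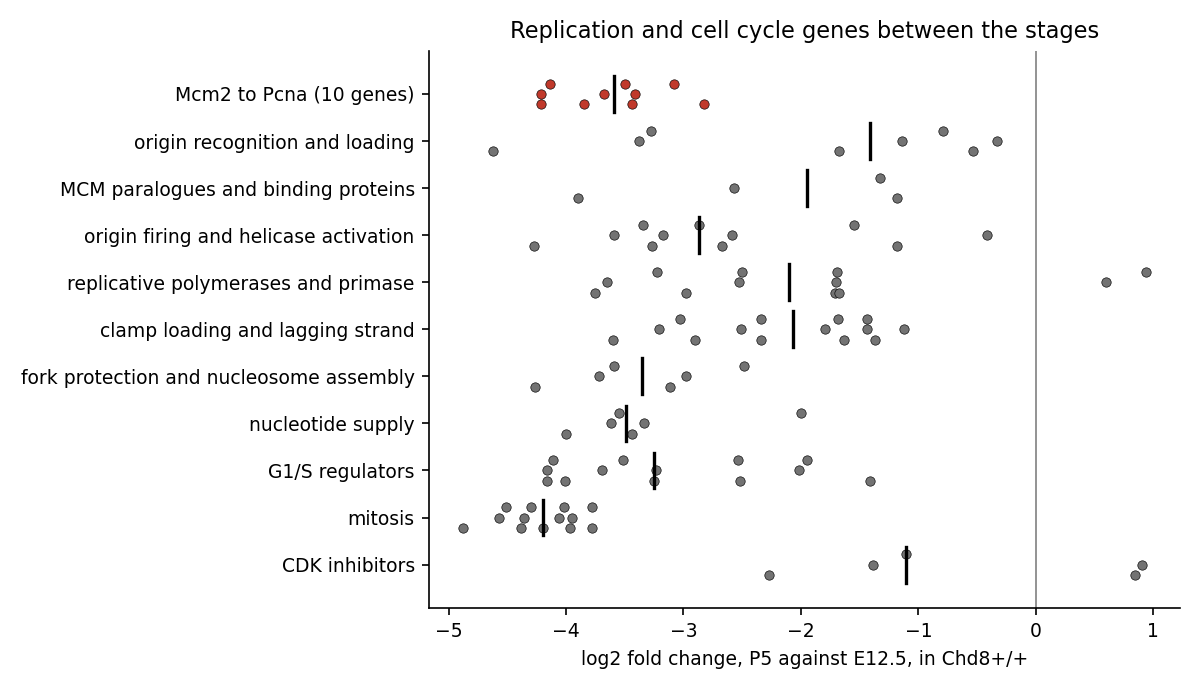
Log2 fold change from E12.5 to P5 in Chd8+/+ mice of the 10 replication genes (red) and of the genes of 10 further lists (grey), with the median of each list as a black line. The 10 genes lie between -4.21 and -2.83 and the mitosis genes between -4.87 and -3.78, whereas the genes for origin recognition and loading spread from -4.62 to -0.33.

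The genes whose profile over the 12 libraries was closest to the mean profile of the 10 genes, among 19666 genes compared by Euclidean distance of centered log2 CPM, included Mdk, Nuf2, Vim and Ckap2l. Their distances were 0.2002 to 0.2496, against 0.206 (Mcm4) to 1.34 (Pcna) for the 10 genes themselves. Mdk, which encodes the growth factor midkine, was at 271 CPM at E12.5 and 21.1 CPM at P5 on average in Chd8+/+ libraries. Nuf2, a kinetochore gene, was at 111 and 8.32 CPM. Vim, the intermediate filament gene of radial glia, was at 1112 and 92.4 CPM, and Ckap2l, a spindle gene, at 134 and 10.4 CPM.

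The next comparison asked whether the genes differ between Chd8+/- and Chd8+/+ cortex at E12.5. None of the 10 genes was called by edgeR, with adjusted p of 0.942 to 0.994, and 0.00553% of the 18081 genes tested were called, Chd8 alone. No gene of the 10 had an unadjusted p under 0.05, against 5.15% of all genes tested, and DESeq2 called none of them. The log2 fold changes ran from -0.03 (Mcm7) to 0.10 (Mcm4), with 7 genes higher and 3 lower in Chd8+/- mice and a median of 0.02. No gene had genotypes that did not overlap between libraries, which held for 11.4% of all genes tested. Mcm4, with the smallest p of the 10, was at 197 ± 9.79 CPM in Chd8+/+ and 211 ± 5.90 CPM in Chd8+/- libraries, and its log2 fold change of 0.10 had a 95% interval of -0.01 to 0.21. For Mcm2 the interval was -0.09 to 0.13, for Mcm5 -0.12 to 0.08 and for Pcna -0.14 to 0.21. The data with 3 libraries per genotype leave differences within these intervals undetermined. Over all genes, 0 to 2 were called with 1 library left out, and 3 by DESeq2. Endothelial markers were at 137 to 149 CPM in E12.5 Chd8+/- against 151 to 158 CPM in Chd8+/+ libraries, lower in 5 of 5 genes. The astrocyte list was at 394 to 400 CPM against 360 to 383 CPM, higher in 4 of the 6 genes tested. Choroid plexus markers were higher in 5 of 5 genes, with sums that overlapped, as did those of the other marker lists. The part of cell composition in these values was not tested.

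In 3 of the 4 groups 1 library was lowest in most of these genes. In E12.5 Chd8+/- mice it was the 2nd library, the lowest in 7 of the 10 genes, at a summed level of 2063 CPM against 2102 and 2177 CPM. The 1st E12.5 Chd8+/+ library was the lowest of its group in 9 of the 10 genes, at a summed level of 1974 CPM against 2113 and 2135 CPM. Without it the median log2 fold change between the genotypes at E12.5 was -0.023, against 0.025 with all libraries. In that library the mitosis list was also the lowest of its group, at 3590 CPM against 3670 and 3830 CPM, and so was the neural progenitor list, at 3065 CPM against 3105 and 3287 CPM. The list of origin firing and helicase activation was the highest of its group there, at 813 CPM against 769.9 and 807 CPM. At P5 the 3rd Chd8+/+ library was the lowest of its group in 9 of the 10 genes, at 171 CPM against 192 and 196 CPM. Without it the median log2 fold change between the genotypes at P5 was -0.042, against -0.016 with all libraries. Mcm2 and Mcm5 turned from above to below 0, and Mcm10 from below 0 to 0.0036. Without the 1st or the 2nd P5 Chd8+/+ library the median was 0.0039 or 0.0094. The mitosis list in the 3rd P5 Chd8+/+ library was at 173 CPM against 191 and 191 CPM, and the neural progenitor list at 703 CPM against 794 and 848 CPM. The list of origin firing and helicase activation, at 152 CPM against 147 and 148 CPM, and that of MCM paralogues and binding proteins, at 68.96 CPM against 67.1 and 68.6 CPM, were the highest of the group. The part of these libraries' makeup in the replication genes was not tested.

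At P5, 0 of the 10 genes were called between the genotypes by edgeR, with adjusted p of 0.222 to 0.984, and 0.00536% of the 18666 genes tested were called, again Chd8 alone. Without the 2nd P5 Chd8+/- library 327 genes were called, without the 3rd 5 and without the 1st 2, and 0 of the 10 in each case. An unadjusted p under 0.05 was found for 1 of the 10 genes, against 17.8% of all genes tested, and libraries that did not overlap for 1 of 10, against 23.4%. That gene was Cdc45, which was higher in Chd8+/- mice, at 5.05 ± 0.354 against 4.22 ± 0.380 CPM (n = 3 each). The log2 fold change was 0.27 ± 0.11 with a 95% interval of 0.04 to 0.51. Its adjusted p was 0.222 by edgeR and 0.281 by DESeq2, neither past the threshold of 0.05. Without the 3rd P5 Chd8+/- library, which stood apart, its log2 fold change was 0.31 (adjusted p = 0.280 by edgeR). Over the fits that omit 1 of the 6 libraries its adjusted p by edgeR was 0.184 to 0.495. Ufd1 had a log2 fold change of 0.01 ± 0.03 between the genotypes at P5.

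The other 9 genes overlapped between the genotypes at P5, with log2 fold changes from -0.09 ± 0.07 (Mcm6) to 0.13 ± 0.16 (Gins1). Without the 3rd P5 Chd8+/+ library, the lowest of its group, Mcm6 was at -0.17 (adjusted p = 0.167 by edgeR), Mcm3 at -0.17 instead of -0.07, Mcm4 at -0.09 instead of -0.05 and Pcna at -0.09 instead of -0.05, none of them called. The intervals were narrowest for Pcna, -0.16 to 0.06, and Mcm7, -0.13 to 0.11, and widest for the low genes Gins1, -0.23 to 0.49, and Mcm10, -0.31 to 0.27. Without the 3rd Chd8+/- library Mcm7 was at 0.034 instead of -0.011, and was called in neither case. DESeq2 called 651 genes at P5 and none of the 10, and gave no adjusted p for Mcm10 and Gins1. Among markers of neighboring tissue and of other cell types, 8 of 8 markers of striatal medium spiny neurons had an unadjusted p under 0.05. They had lower levels in P5 Chd8+/- libraries, with a summed level of 245 to 301 CPM against 334 to 366 CPM. Choroid plexus markers were at 320 to 377 CPM against 437 to 569 CPM, with 4 of 5 at an unadjusted p under 0.05. Endothelial markers were at 145 to 157.1 CPM against 157.2 to 177 CPM, with 4 of 5 at an unadjusted p under 0.05, and markers of GABAergic interneurons at 548 to 615 CPM against 638 to 655 CPM, with 3 of 8. Markers of meningeal fibroblasts were higher in Chd8+/- libraries in 5 of 5 genes, 1 at an unadjusted p under 0.05, with summed levels of 263 to 344 CPM against 274.9 to 306 CPM that overlapped. No gene of these 5 lists was called by edgeR, whereas DESeq2 called 6 striatal, 3 choroid plexus, 2 endothelial, 1 interneuron and 0 meningeal markers. The mitosis list was lower in 12 of 13 genes in P5 Chd8+/- libraries, 2 of them at an unadjusted p under 0.05, against 17.8% of all genes, with a summed level of 156 to 184 CPM against 173 to 191 CPM. Intermediate progenitor markers were at 19.7 to 20.9 CPM against 23.1 to 25.1 CPM. The part of dissection and cell composition in the genotype values was not tested.

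**Figure D5:**
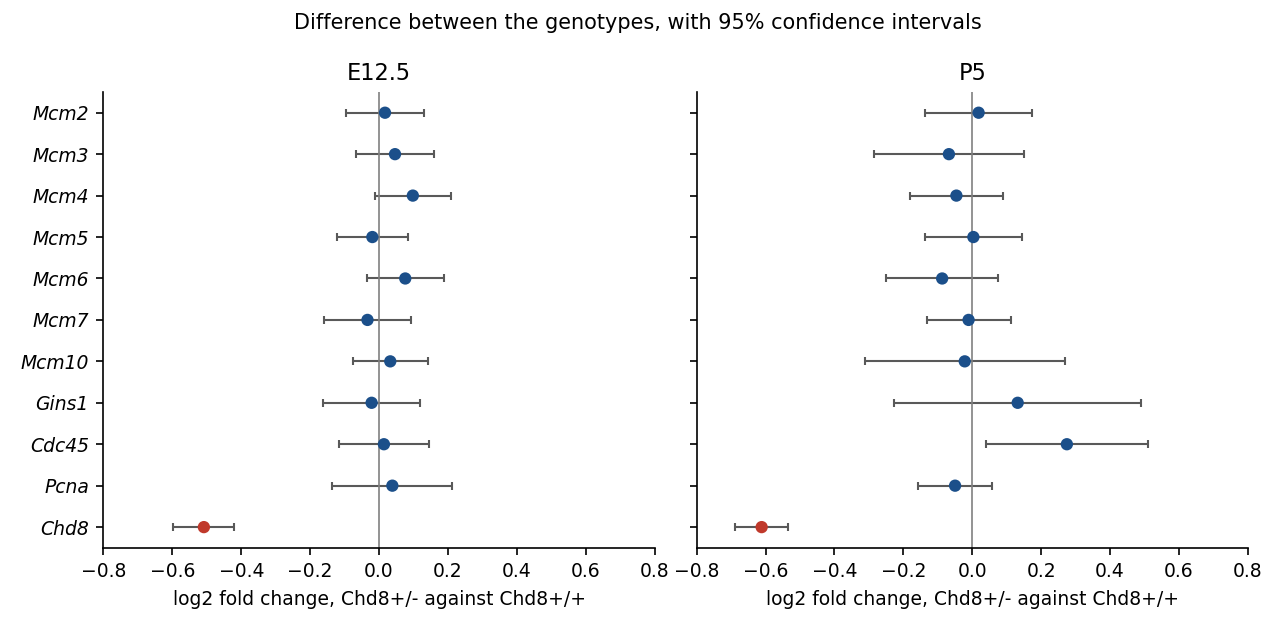
Log2 fold change from Chd8+/+ to Chd8+/- of the 10 genes (blue) and of Chd8 (red) at E12.5 and P5, with 95% confidence intervals of the edgeR fits as bars. The intervals of the 10 genes include 0 except that of Cdc45 at P5, whereas Chd8 is at -0.51 and -0.61.

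The genotypes were last compared for whether their difference changed between the stages, as the interaction of genotype and stage (the log2 fold change at P5 minus that at E12.5). No gene of the 10 was called by edgeR, as was 0% of the 19676 genes tested, and DESeq2 called 8 genes, none of them among the 10. An unadjusted p under 0.05 was found for 2 of the 10, against 10% of all genes tested. Mcm4 had an interaction of -0.16 ± 0.07 (95% interval -0.31 to -0.01, adjusted p = 0.469 by edgeR), from the model of all 12 libraries. In the separate fits of each stage its log2 fold change was 0.10 at E12.5 and -0.05 at P5. Cdc45 had an interaction of 0.24 ± 0.10 (95% interval 0.02 to 0.47, adjusted p = 0.469 by edgeR). Mcm6 had -0.18 ± 0.09 (95% interval -0.37 to 0.0089), and the other 7 genes lay between -0.13 (Mcm3) and 0.13 (Gins1).

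The wider replication lists also held no gene called between the genotypes by edgeR. At E12.5, 3 of the 61 genes had an unadjusted p under 0.05, against 5.15% of all genes tested, and at P5 9 of 61, against 17.8%, so that neither share lay above that of all genes. The genes of the replication and cell cycle lists with the smallest p at E12.5 were Timeless, a fork protection gene, at -0.20 ± 0.06, Cdkn1b, a CDK inhibitor, at -0.14 ± 0.05 and Tk1, thymidine kinase, at -0.23 ± 0.08, each with an adjusted p of 0.942 by edgeR. At P5 they were Cdkn1a, a CDK inhibitor, at 0.17 ± 0.04 (adjusted p = 0.116 by edgeR), Rfc2 at 0.21 ± 0.05 (adjusted p = 0.117 by edgeR) and Rpa2, a subunit of the single-strand binding protein, at 0.25 ± 0.07 (adjusted p = 0.122 by edgeR). Of the 61 genes, DESeq2 called 0 at E12.5 and 1 at P5.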

How the data were processed

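RNA-seq was measured in 12 mouse neocortex libraries. As to upstream steps, the authors trimmed and aligned paired-end reads to GRCm38 (TopHat2 2.1.0, per the submitters' processing notes) and counting them per gene with featureCounts 1.5.0. The deposited unit is the raw count per gene and sequencing run, not normalized. Symbols were found for 46005 of 46603 genes. The 2 runs of a library were summed.

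Genotypes were compared within a stage (6 libraries), and stages and their interaction with genotype in a model of all 12 libraries with a mean per group, by edgeR 4.0.16 (R 4.3.3) with TMM factors, after its filterByExpr filter at default settings. P-values came from the quasi-likelihood test, with the Benjamini-Hochberg method run over all genes tested. The biological coefficient of variation was 9.18% at E12.5, 7.42% at P5 and 8.36% over all libraries. A gene is called when its adjusted p is under 0.05. Depth was 38774591 to 54695236 counts per library. Alternatives were DESeq2 1.42.0, limma-voom (limma 3.58.1), other scalings and filters, a gene length offset (loess, span 0.5), the replicate number as a block, other sets of libraries and each library left out. Scripts were tested on simulated data, and tables and figures made with Python 3.11.15.

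The 10 genes, the gene lists and the tests were chosen with earlier results of these data known. The share test was added after seeing the data. Named are the 10 genes, Chd8, in each list the genes with the largest and smallest fall in Chd8+/+ mice, at each stage the 3 genes of the replication and cell cycle lists with the smallest genotype p, and the 5 genes closest in profile, of which 1 is not reported here.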

Additional observations from a re-analysis of the deposited data

How the results depend on the processing

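The number of the 10 genes called did not change under any setting run: 0 for the genotype at E12.5 and at P5, 10 for the stage in each genotype and 0 for the interaction. Over all genes, the number called between the genotypes at E12.5 was 1, and 3 with DESeq2, 13 without a filter on low counts, 2 with all 12 libraries in 1 fit and 0 to 2 with a library left out (2 without the 1st Chd8+/+ or the 2nd Chd8+/- library, 0 without the 3rd Chd8+/+ or the 1st or 3rd Chd8+/- library). At P5 it was 1, and 651 with DESeq2, 995 without the filter, 4 with all 12 libraries and 1 to 327 with a library left out (327 without the 2nd, 5 without the 3rd and 2 without the 1st Chd8+/- library). For the interaction it was 0, and 8 with DESeq2, 17 without the filter and 0 to 2 with a library left out. The cause was not tested. Libraries of the same replicate number had correlations of deviations of -0.156, -0.0635 and -0.0494 at E12.5, against -0.0745 to 0.143 for different numbers. At P5 the same numbers had 0.187, 0.0783 and 0.0384, against -0.138 to 0.0719 for different numbers. The numbers showed no pairing of the libraries at E12.5, and whether they pair them at P5 is not known. With the replicate number as a block, 0 genes were called at E12.5 and 4 at P5.

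The median log2 fold change of the 10 genes between the stages was -3.87 in Chd8+/+ and -3.81 in Chd8+/- mice with the length offset. In Chd8+/- mice it was -3.51 with DESeq2, -3.51 with RLE scaling, -3.49 with upper-quartile scaling, -3.52 with a filter of CPM above 1 in 3 libraries and -3.58 to -3.52 with a library left out. Between the genotypes at E12.5 it was -0.023 to 0.049 with a library left out. The values below changed sign, and each was of a difference not called. Between the genotypes at P5, Mcm7 was at 0.0098 and Mcm10 at 0.026 with the length offset, and Mcm5 at -0.013 with all 12 libraries. The interaction of Mcm2 was 0.0058 with upper-quartile scaling, 0.0084 with library totals and 0.048 with the length offset. With a library left out, the log2 fold change at E12.5 ran from -0.019 to 0.044 for Mcm2, -0.00056 to 0.052 for Mcm10, -0.033 to 0.045 for Cdc45, -0.026 to 0.096 for Pcna, -0.076 to 0.0052 for Mcm7, -0.065 to 0.017 for Gins1 and -0.052 to 8.8e-05 for Mcm5. At P5 it ran from -0.041 to 0.034 for Mcm7, -0.12 to 0.085 for Mcm10, -0.043 to 0.039 for Mcm5, -0.0066 to 0.27 for Gins1 and -0.042 to 0.054 for Mcm2. The interaction ran from -0.082 to 0.048 for Mcm2, -0.022 to 0.076 for Mcm7, -0.045 to 0.066 for Mcm5, -0.17 to 0.036 for Mcm10 and -0.0019 to 0.28 for Gins1.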
